A study of Homo sapiens with 6 samples.

Results

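Proteins that bind AU-rich elements or Pumilio elements in the 3′ UTRs of mRNAs were followed here at the level of their own transcription and their own RNA. The group holds 8 genes, chosen by name and found by mapping the counted transcript identifiers to GENCODE gene symbols, of 37192 genes matched in all. These are ZFP36, ZFP36L1, ZFP36L2, ELAVL1, KHSRP, TIA1, TIAL1 and PUM2, and each had exactly 1 counted transcript. All libraries came from K562, a human chronic myelogenous leukemia cell line, grown untreated in a single flask, so that no library carries a genotype, dose or time point. PRO-seq (2 libraries), which sequences nascent RNA at engaged polymerases, was set against total RNA-seq after rRNA depletion (4 libraries), which measures accumulated RNA. The p-values therefore measure the spread between libraries of this culture, which may be technical.

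An AU-rich element is a run of U-rich sequence with AUUUA motifs that marks an mRNA for regulated decay or translation. ZFP36 (tristetraprolin) and its relatives ZFP36L1 and ZFP36L2 are zinc finger proteins that bind such elements and bring in the CCR4-NOT deadenylase, which shortens the poly-A tail, and KHSRP also promotes decay of these mRNAs. ELAVL1 (HuR) binds similar sites and is known for stabilizing its targets, TIA1 and TIAL1 are translational repressors found in stress granules, and PUM2 is a Pumilio protein that binds UGUA-type elements and recruits deadenylases. Several members are known to bind their own mRNAs or those of other members.

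The 3′ UTRs of 4 members, ZFP36, ZFP36L1, ZFP36L2 and ELAVL1, held the nonamer TTATTTATT (written as DNA), the optimal binding site of ZFP36 proteins, and each held it exactly 1 time. It occurred in 7.88% of the 3′ UTRs of 17366 counted coding transcripts, but this share grows with length. Among 3′ UTRs between 0.8 and 1.25 times as long, it was 4.13% for ZFP36, 9.09% for ZFP36L1, 9.17% for ZFP36L2 and 21.2% for ELAVL1. These sites are shown because the AU-rich element is the feature that the members bind, with 24 bases each, 5′ to 3′ on the sense strand, and the nonamer in capitals:
ZFP36: gacgactTTATTTATTctaatatg
ZFP36L1: tgttggaTTATTTATTttagaaat
ZFP36L2: atttaacTTATTTATTatcttgtg
ELAVL1: tatgtatTTATTTATTgaagtgtg

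On GRCh37 the windows lie at chr19:39899839-39899862 (plus strand) for ZFP36, chr14:69254796-69254819 (minus strand) for ZFP36L1, chr2:43450589-43450612 (minus strand) for ZFP36L2 and chr19:8026714-8026737 (minus strand) for ELAVL1. All are in 3′ UTR exon sequence, and the nonamers start at bases 507, 1438, 853 and 1637 after the stop codon, respectively.

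Pumilio elements, TGTANATA as DNA, were found in TIAL1 and PUM2 only among the 8 members, with 2 in each. Such an element occurred in 24.5% of all 3′ UTRs, so its presence is not unusual. The elements are in capitals:
TIAL1 first element: atacatatTGTAAATAttcaataa
TIAL1 second element: acttggtaTGTAAATAccttgatt
PUM2 first element: tatagagaTGTATATAgaattata
PUM2 second element: agaaatatTGTATATActtacata

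The TIAL1 windows lie at chr10:121334374-121334397 and chr10:121334065-121334088, and those of PUM2 at chr2:20450906-20450929 and chr2:20450646-20450669, all on the minus strand of GRCh37.

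Motif counts separated the members further. The searched words were the pentamer ATTTA, the heptamer TATTTAT, the nonamer TTATTTATT, the Pumilio element TGTANATA and the short Pumilio word TGTATA on the sense strand, overlaps allowed, so that each longer AU word contains the shorter ones and TGTATATA contains TGTATA. Each count was set beside the 3′ UTRs of other genes between 0.8 and 1.25 times as long. ZFP36, with a 3′ UTR of only 708 bases, held 5 copies of ATTTA and 3 of TATTTAT, more of the latter than 98.9% of 1984 UTRs of like length. ZFP36L1 (1871 bases) and ZFP36L2 (1917 bases) also held 3 copies of TATTTAT each, more than 95.6% of their like-length sets. ELAVL1 (4910 bases) held 5 copies of TATTTAT, more than 95.7% of 1239 UTRs, and these fell within a short stretch between bases 1604 and 1638. In ATTTA the last 3 genes stood out less. ZFP36L1 held 8 copies, ZFP36L2 5 and ELAVL1 13, more than 85.6%, 61.5% and 60.4% of their like-length sets. KHSRP (764 bases) held none of the 5 words, whereas 66.4% of its 1966 like-length UTRs held ATTTA.

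TIA1 (3275 bases), TIAL1 (3863 bases) and PUM2 (2848 bases) each held a single TATTTAT close to the stop codon, at bases 112, 93 and 115. They held 13, 7 and 9 copies of ATTTA, respectively, more than 85.3%, 40% and 70.8% of their like-length sets. PUM2 stood apart in the short Pumilio word TGTATA, with 10 copies where the median of 2224 like-length UTRs was 1, and only 1 of those UTRs held as many. TIAL1 held 2 copies of TGTATA, ZFP36L1, ZFP36L2, ELAVL1 and TIA1 held 1, and ZFP36 and KHSRP held none. The 3′ UTRs are those of the counted transcripts, except for ZFP36L1, whose counted transcript ends inside the coding sequence, so that the MANE Select transcript was read instead. A match describes letters in the annotated UTR and not a bound site.

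Depth and identity of the libraries were checked first. Counts on transcription units (TUs, the genomic interval of the 1 counted transcript) ranged from 5732780 to 9002746 in RNA-seq and were 6993816 and 7245632 in PRO-seq. Among the K562 marker genes, the erythroid transcription factors GATA1 and KLF1 were at 148 to 180 TPM (transcript abundance scaled to a fixed sum per library) and 178 to 206 TPM in RNA-seq. Of 8 markers of other cell types, 6 were matched, and 5 of these stayed at or below 0.675 TPM in RNA-seq. The exception was LYZ (lysozyme) at 331 to 343 TPM, which makes up most of the summed 332 to 344 TPM of that list, and its part in the results on the members was not tested.

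TPM was computed from the deposited counts dividing by exon length in RNA-seq and, in PRO-seq, by the length of the TU less 1000 bp, because polymerases in the first and last 500 bp of a TU were left uncounted. Levels of different genes are thus compared per length throughout. TPM is scaled within each assay, so RNA-seq TPM under PRO-seq TPM does not by itself mean a low ratio. In RNA-seq the order was KHSRP, TIA1, PUM2, ELAVL1, ZFP36L2, TIAL1, ZFP36L1 and ZFP36, from 118 to 126 TPM for KHSRP down to 1.47 to 3.06 TPM for ZFP36. Neighbours in this order did not overlap between libraries, except ZFP36L2 with TIAL1 and ZFP36L1 with ZFP36.

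In PRO-seq the order was different. ZFP36L2 (238 and 258 TPM), ZFP36 (194 and 253 TPM) and ZFP36L1 (172 and 209 TPM) led, followed by KHSRP (170 and 176 TPM), and each overlapped with the next in this order down to KHSRP. ELAVL1 (112 and 122 TPM) and PUM2 (114 and 115 TPM) overlapped each other, and TIAL1 followed at 85.7 and 90.3 TPM. The mean PRO-seq level of ZFP36 was above that of 98.0% of all counted mRNAs, whereas its mean RNA-seq level was above that of 49.1%.

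**Figure D1:**
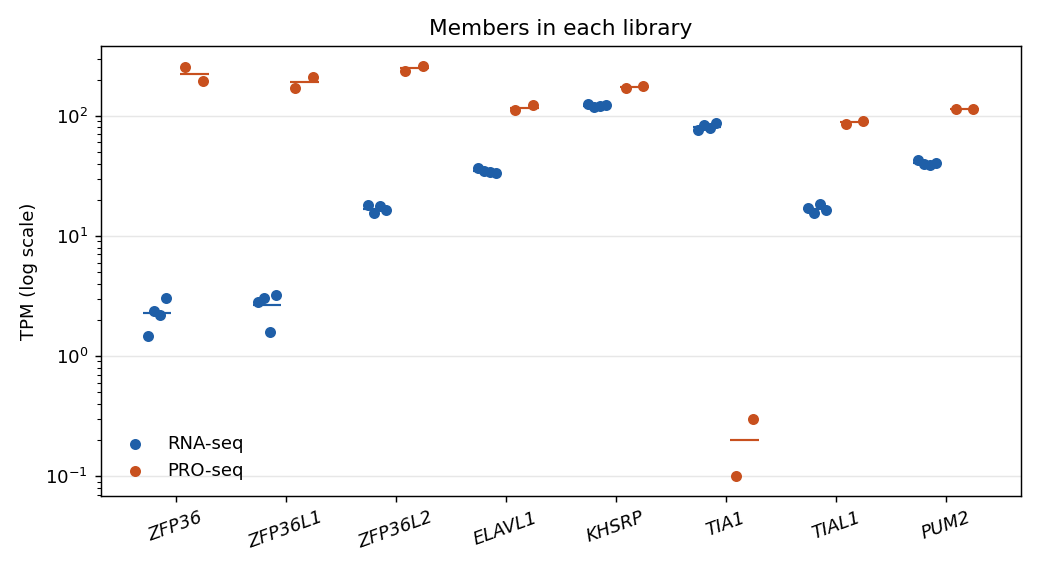
TPM of each member (log axis) in the 4 RNA-seq libraries (blue) and the 2 PRO-seq libraries (orange), with points for libraries and bars for their means. PRO-seq lies above RNA-seq for every member but TIA1, and among those members the gap is widest for ZFP36 (1.47 to 3.06 TPM against 194 and 253 TPM). TIA1 has a wider gap in the other direction. TPM is scaled within each assay.

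Relative half-life was taken as RNA-seq TPM over PRO-seq TPM, a ratio with no time unit, wherever PRO-seq exceeded 10 TPM and RNA-seq exceeded 1 TPM. Each TU was tested against the median mRNA (protein-coding TU) with edgeR's quasi-likelihood test and Benjamini-Hochberg adjustment over 10053 TUs. Of the 8 members, 7 passed the thresholds and TIA1 did not. With adjusted p under 0.05, 6 of the 7 were below the median mRNA, where 50.4% of all TUs tested and 44.9% of 8733 mRNAs were called in that direction. The remaining member, KHSRP, was above it, where 40.0% of TUs, noncoding ones included, were called. Because these shares are high, a call alone says little about a gene, and the size of the difference is the more informative value. When the test asked for more than a 2-fold difference, 5 of the 7 members were below (29.8% of TUs and 23.2% of mRNAs) and 0 of the 7 were above (21.3% of TUs). The 2 that missed it with edgeR were PUM2 and KHSRP, each with adjusted p = 1, and no member was above at an unadjusted p under 0.05 in that test. Of the 5 below, ELAVL1 was the closest to the limit (edgeR, adjusted p = 0.0128). The median log2 half-life of the 7 members was -1.76, beside 0 for all mRNAs by construction and a range from -1.06 to 1.08 between the quartiles of all mRNAs.

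**Figure D2:**
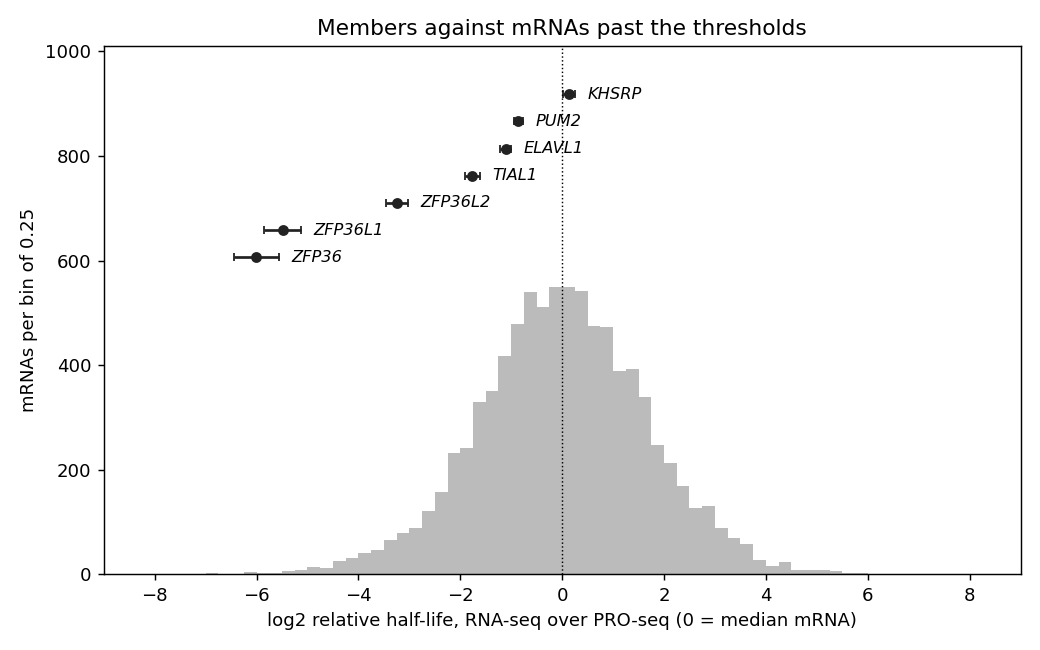
Log2 relative half-life (RNA-seq over PRO-seq, 0 is the median mRNA) of 8733 mRNAs as a grey histogram in bins of 0.25, with the 7 members that passed the thresholds placed above it at their own values. Bars are approximate 95% intervals from an SE derived from the edgeR F statistic, and that of ZFP36L1 is too narrow for its few counts. The height of a point has no meaning. ZFP36 and ZFP36L1 lie in the far left tail, and KHSRP at the centre.

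The ZFP36 family, the decay-promoting zinc finger proteins, had the lowest ratios of RNA-seq to PRO-seq among the 7 members past the thresholds. ZFP36 (ENSG00000128016, chr19:39897487-39900047 on GRCh37, plus strand, 2 exons) was at 1.47, 2.37, 2.19 and 3.06 TPM in RNA-seq replicates 1 to 4, from 10, 17, 10 and 16 counts. In PRO-seq it was at 253 and 194 TPM, from 102 and 80 counts. Even the highest RNA-seq TPM was far under the lower PRO-seq TPM, though each assay has its own scale. Its log2 half-life was -6.01 ± 0.226 (SE), a 64.3-fold lower ratio than the median mRNA (edgeR, adjusted p = 6.31e-21), and 0.149% of mRNAs were lower. The 8 ways of pairing an RNA-seq with a PRO-seq library gave -6.79 to -5.35. The RNA-seq counts are few, so the size of this difference is less certain than its direction.

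ZFP36L1 (ENSG00000185650, chr14:69256662-69262970, minus strand, 2 exons) was at 2.83, 3.02, 1.58 and 3.21 TPM in RNA-seq, from 8, 9, 3 and 7 counts. PRO-seq gave 172 and 209 TPM, from 236 and 292 counts. RNA-seq replicate 3, with the fewest counts, was the lowest of the 4. The log2 half-life was -5.49 ± 0.183 (SE), 44.8-fold lower than the median mRNA (edgeR, adjusted p = 3.12e-22), with the 8 pairings from -6.40 to -5.13. This SE is too small for so few counts, and DESeq2 gave an SE of 0.326 at the same value. The counted transcript has only 727 exon bases and lacks the 3′ UTR, so that this RNA-seq level rests on a small part of the mRNA, and the effect of that choice was not tested.

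ZFP36L2 (ENSG00000152518, chr2:43449541-43453745, minus strand, 2 exons) had a PRO-seq level like that of its relatives but a higher RNA-seq level. It was at 18.0, 15.4, 17.8 and 16.4 TPM in RNA-seq, from 259, 233, 172 and 181 counts, and at 238 and 258 TPM in PRO-seq, from 197 and 218 counts. The log2 half-life was -3.24 ± 0.108 (SE), 9.46-fold lower than the median mRNA (edgeR, adjusted p = 2.98e-22), and 3.13% of mRNAs were lower. The 8 pairings stayed between -3.42 and -3.09.

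Within the family, ratios inside a library were compared between the assays, which removes library size. The log2 ratio of ZFP36 over ZFP36L2 was -2.94 ± 0.514 (SD, n = 4) in RNA-seq and -0.16 ± 0.351 (SD, n = 2) in PRO-seq, a difference of -2.78 ± 0.622. The ratio of ZFP36L1 over ZFP36L2 differed by -2.33 ± 0.554, with RNA-seq libraries from -3.50 to -2.35 and PRO-seq libraries from -0.468 to -0.306. In both cases the RNA-seq and PRO-seq libraries did not overlap, and the two-sided exact permutation p was 0.133 (0.178 after Benjamini-Hochberg adjustment over 4 pairs). With 4 libraries against 2, all taken as independent, this is the smallest p the design allows, so p under 0.05 could not be reached. The RNA-seq libraries formed close pairs (replicates 1 and 3, and 2 and 4) and may not be independent. ZFP36 and ZFP36L1 were not distinguished, since their ratio differed by -0.449 ± 0.75 between the assays and the libraries overlapped (exact permutation p = 0.4, also after adjustment).

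The 3 ZFP36 genes also share a short structure with 2 exons. The 363 mRNAs with 2 exons that passed the thresholds had a median log2 half-life of -1.09, and among them 5 were lower than ZFP36, 7 lower than ZFP36L1 and 41 lower than ZFP36L2. The same low ratios can be read as low RNA-seq TPM among mRNAs of like PRO-seq TPM, which is not separate evidence. Among 300 mRNAs within 1.25-fold of ZFP36 in PRO-seq TPM, whatever their RNA level, the median RNA-seq level was 118 TPM, and 4 were below the 2.23 TPM of ZFP36 from summed counts. For ZFP36L1 10 of 415 such mRNAs were lower, and for ZFP36L2 16 of 246.

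Across all mRNAs past the thresholds, those with 3 or more TATTTAT words in the counted 3′ UTR had a median log2 half-life of -0.617 (503 mRNAs), those with 1 or 2 had -0.248 (2224 mRNAs) and those with none had 0.194 (5410 mRNAs). In UTRs of 500 to 2500 bases, which bracket those of the ZFP36 family, the medians were -0.199 (86 mRNAs), 0.0011 (1025 mRNAs) and 0.149 (2793 mRNAs). ZFP36 and ZFP36L2 lie far below the lower quartile of such UTRs with 3 or more words, which was -1.34. ZFP36L1 is not among these UTRs, because its counted transcript lacks the 3′ UTR. The part of the words in these half-lives was not tested. These medians are a description, since transcripts are not replicates.

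ELAVL1 (ENSG00000066044, chr19:8023457-8070525, minus strand, 6 exons), the stabilizing protein of the group, was at 36.8, 34.7, 34.2 and 33.5 TPM in RNA-seq and at 112 and 122 TPM in PRO-seq. The libraries of each assay lay close together. Its log2 half-life was -1.11 ± 0.0527 (SE), 2.16-fold lower than the median mRNA (edgeR, adjusted p = 2.50e-18), and 24.2% of mRNAs were lower. It shares the nonamer with the ZFP36 family, and a link of the nonamer to the ratio was not tested. Among 1022 mRNAs transcribed at a like PRO-seq level, 29.5% had a lower RNA-seq TPM.

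KHSRP (ENSG00000088247, chr19:6413359-6424805, minus strand, 20 exons), the KH-domain protein that promotes decay, had the most RNA of the members, at 126, 118, 121 and 122 TPM in RNA-seq against 170 and 176 TPM in PRO-seq. Its log2 half-life of 0.13 ± 0.0594 (SE) was the only one above the median mRNA, by 1.09-fold (edgeR, adjusted p = 0.0456), and 53.3% of mRNAs were lower. This call was lost with edgeR without RNA-seq replicate 1 (0.0988, adjusted p = 0.13), 3 (0.131, 0.054) or 4 (0.126, 0.061), or without PRO-seq replicate 1 (0.117, 0.15) or 2 (0.131, 0.12), and with a block for the replicate number (0.131, adjusted p = 0.12). The 95% interval of the difference was 0.0106 to 0.244. KHSRP is the member whose 3′ UTR held none of the searched words, and a link of these words to the ratio was not tested.

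TIAL1 (ENSG00000151923, chr10:121331314-121356007, minus strand, 12 exons), the translational repressor TIAR, was at 17, 15.4, 18.3 and 16.3 TPM in RNA-seq and at 85.7 and 90.3 TPM in PRO-seq. Its log2 half-life was -1.76 ± 0.0738 (SE), 3.40-fold lower than the median mRNA (edgeR, adjusted p = 9.71e-20), and 13.6% of mRNAs were lower. The 8 pairings gave -1.91 to -1.61.

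TIA1 (ENSG00000116001, chr2:70436576-70475792, minus strand, 12 exons) had no usable half-life. RNA-seq gave 75.8, 83.4, 78.9 and 86.6 TPM, the second-highest level of the members, but PRO-seq gave 0.101 and 0.298 TPM, from 1 and 3 counts. Of the 38217 bp counted for PRO-seq, 38172 bp also belong to a transcript of C2orf42 (chr2:70408762-70475747) that was counted on the same strand and held 603 and 658 PRO-seq counts, whereas only 211 of the 4633 exon bases of TIA1 are shared. Among 946 mRNAs whose PRO-seq window was at least 99% covered by another counted TU on the same strand, 4.33% had 10 or more PRO-seq counts, against 73.9% of 10901 mRNAs with no such overlap on either strand and 48.7% of 830 covered on the other strand alone. These sets also differed in RNA-seq, where 48.7%, 64% and 40.2%, respectively, had 10 or more counts. The part of the shared window in the PRO-seq counts of TIA1 was not tested. With no TPM threshold TIA1 would be placed at a log2 half-life of 9.93, a value made from 4 PRO-seq counts, and with the 45 bp that no other TU shares it would be at -0.32 ± 0.748 (SE; edgeR, adjusted p = 0.685). The ratio of TIA1 over TIAL1 differed between the assays by 11.3 ± 1.06 on the log2 scale (exact permutation p = 0.133, the smallest possible), a difference that holds the same shared window. No other member shared counted bases on its strand with another TU.

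PUM2 (ENSG00000055917, chr2:20448498-20550605, minus strand, 21 exons) was at 42.5, 39.7, 39.3 and 40.3 TPM in RNA-seq and at 114 and 115 TPM in PRO-seq, the tightest of the members. Its log2 half-life was -0.86 ± 0.0438 (SE), 1.82-fold lower than the median mRNA (edgeR, adjusted p = 1.41e-17), with 29.1% of mRNAs lower.

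For each member the mRNA with the nearest profile was taken by Euclidean distance in log2 TPM over the 6 libraries among 8723 mRNAs. The nearest were WDR1 for ZFP36 (distance 0.936), LCAT for ZFP36L1 (0.748), SRRM2 for ZFP36L2 (0.293), ELOA for ELAVL1 (0.152), UNC13D for KHSRP (0.123), GYS1 for TIAL1 (0.24) and TST for PUM2 (0.138). The distances were largest for ZFP36 and ZFP36L1, whose RNA-seq counts were also the fewest. The counted transcript of WDR1 is a retained-intron model with 2 exons, and its log2 half-life of -6.55 belongs to that model.

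The partners and regulators of these proteins were read from the same fit. Of 18 other proteins that bind such elements, 12 passed the thresholds, 7 were below the median mRNA and 3 above, where 50.4% and 40.0% of all TUs were called, and their median log2 half-life was -0.781. The share below was thus near that of all TUs, and 44.9% of mRNAs were called below. The lowest were ZC3H12A (regnase-1, an endonuclease) at -2.15 ± 0.127 (SE) and HNRNPA0, an AU-rich element binding hnRNP, at -1.89 ± 0.0779. The 3 above were CELF2 at 1.34 ± 0.0627, AUH at 0.47 ± 0.0757 and MEX3C at 0.33 ± 0.14 (adjusted p = 0.0266 with edgeR).

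All 23 deadenylation and decapping partners passed the thresholds, with 15 below, 8 above and a median of -0.621. Of all TUs 50.4% were called below and 40.0% above, and of mRNAs 44.9% were called below. Against a 2-fold difference 8 were below (29.8% of TUs and 23.2% of mRNAs) and 3 above (21.3% of TUs). The lowest were TOB1, an adaptor that links targets to the CCR4-NOT deadenylase, at -3.71 ± 0.127 (SE) and CNOT3, a subunit of that complex, at -2.52 ± 0.106. The highest were the subunits CNOT10 at 1.72 ± 0.0482 and CNOT11 at 1.36 ± 0.0766, so subunits of the same complex lay on both sides of the median mRNA.

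Regulators of the ZFP36 family are the kinases, phosphatases and YWHA adaptor proteins that act on its phosphorylation. Of 15 listed genes 13 passed, 11 above and 2 below, with a median of 0.921. Of all TUs, noncoding ones included, 40.0% were called above and 50.4% below, and 44.9% of mRNAs were called below. Against a 2-fold difference 6 of the 13 were above (21.3% of all TUs) and 1 below (29.8%). DUSP1, the phosphatase that switches off the kinase MAPK14, was lowest at -4.10 ± 0.138 (SE), and the kinase MAP2K3 was at -0.73 ± 0.183 (edgeR, adjusted p = 0.000541). YWHAH was highest at 4.72 ± 0.103, but 88.7% of its PRO-seq window is shared with another TU on its strand, and YWHAE followed at 2.57 ± 0.041 with no shared bases.

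Among 16 genes known for AU-rich elements in their mRNAs, 11 genes with 12 TUs passed the thresholds, since MCL1 had 2 counted transcripts. Of the 12 TUs, 11 were below the median mRNA (50.4% of all TUs and 44.9% of mRNAs) and 1 above (40.0% of all TUs). Against a 2-fold difference 9 were below (29.8% of all TUs and 23.2% of mRNAs). The median was -1.80, near the -1.76 of the members. These counts and this median include both MCL1 transcripts, although 1 of them is noncoding. The lowest were FOS at -5.92 ± 0.24 (SE) and a noncoding MCL1 transcript downstream of the main gene at -6.03 ± 0.118, while the coding MCL1 transcript was at -1.79 ± 0.0383. FOS, an immediate early transcription factor, was at 1.33 TPM in RNA-seq and 125 TPM in PRO-seq from summed counts, close to the pattern of ZFP36. VEGFA, a growth factor, was the 1 gene above, at 0.16 ± 0.0727 (edgeR, adjusted p = 0.0356). The next was CDKN1A, a cell cycle inhibitor, at -0.52 ± 0.16 (edgeR, adjusted p = 0.00351).

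**Figure D3:**
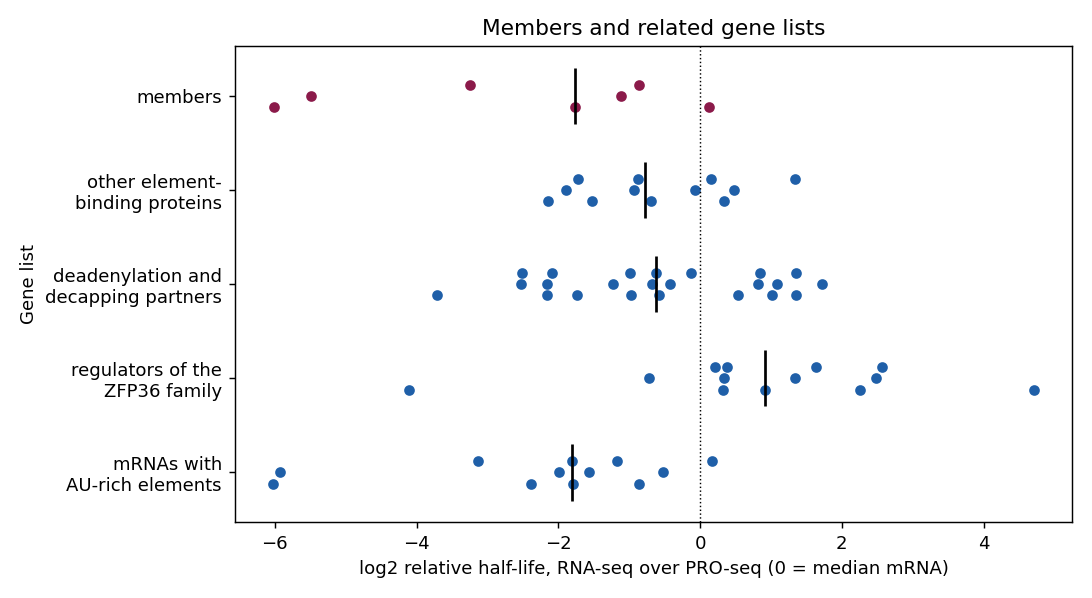
Log2 relative half-life (0 is the median mRNA) of the 7 members (red) and of the TUs of the 4 related lists (blue) that passed the thresholds, with 1 point per TU and a black bar at each list's median. The members and the mRNAs with AU-rich elements have their medians at -1.76 and -1.80, and the regulators of the ZFP36 family at 0.921. The lowest point of the AU-rich list is a noncoding MCL1 transcript.

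The comparison rests on the steady-state ratio. PRO-seq density depends on both transcription and elongation rate, and the part of elongation in these ratios was not tested. Without the TPM thresholds the median mRNA moved, and mRNAs lay 0.628 higher on the log2 scale relative to it, which placed ELAVL1 at -0.481, TIAL1 at -1.14, PUM2 at -0.233 and KHSRP at 0.755.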

How the data were processed

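The authors deposited, for each of the 6 K562 libraries, raw HTSeq counts per transcript not normalized. Reads had been trimmed (Cutadapt) and aligned to GRCh38 (HISAT2). For tool versions and the strand setting, the sources used here say nothing. The file labels name 500 bp left out in PRO-seq, and the methods give 500 bp at each end. Records on no TU (66.5% to 68.6% in RNA-seq, 86.5% and 88.6% in PRO-seq) were left out.

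Of 42371 Ensembl transcripts, 37339 (88.1%) were joined by identifier to GENCODE annotation (version 44) lifted to GRCh37, which supplied lengths, coordinates and 3′ UTRs and may differ from those the authors counted on. Sequences are from its transcripts. The RNA-seq against PRO-seq test was tried on simulated counts of 10053 TUs, in which 200 had a log2 change of 1. It found 86% of these and made 12 false calls. The simulated libraries were independent, all TUs had the same dispersion, and the other TUs were unchanged. In the data most TUs were called and some RNA-seq libraries may not be independent, so the simulation does not give the error rate of the calls reported here.

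Half-life was fitted with edgeR (version 4.0.16, R version 4.3.3) on the counts of all 6 libraries, with TMM normalization, length offsets and 1 factor for the assay, centred on the median mRNA. DESeq2 (version 1.42.0) was an alternative. Others were minimums of 20 and 2 TPM or 1 summed count, 500 bp removed, library totals, a 2-fold test, a replicate block, each library left out, CPM without length and a pseudocount of 1 TPM. Lengths without shared bases, and RNA-seq replicates 1 and 3 and 2 and 4 summed, were added after seeing the data. These were the closest pairs (chi-square per degree of freedom 1.11 and 1.12, others 1.74 to 2.11). Libraries within a pair still differed beyond counting noise and were kept as replicates, but they may not be independent. Paralog ratios used the exact permutation test (scipy), without pseudocount.

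The members and all gene lists were chosen with earlier results of these data known. Named genes are the members, the nearest mRNA of each, the 2 highest and 2 lowest of each list and genes in called counts of 5 or fewer, with others marked. Reads carry no molecular identifiers, so counting error is a lower limit. Of the SEs given here, those of ZFP36L1, FOS, YWHAH and the noncoding MCL1 transcript fell below counting error and are too small. Some items are not reported here.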

Additional observations from a re-analysis of the deposited data

How the results depend on the processing

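The 6 members below the median mRNA stayed below it and past the threshold under all 15 alternatives fitted with edgeR or DESeq2, with 1 exception, PUM2 against a 2-fold difference (-0.861, adjusted p = 1). ZFP36 ranged from -6.21 to -5.38, ZFP36L1 from -5.61 to -4.86 and ZFP36L2 from -3.29 to -2.61. KHSRP was past the threshold in 5 of the 15. It was not with minimums of 20 and 2 TPM (0.0882), DESeq2 (0.127), a 2-fold difference (0.127), the replicate block (0.131) or close pairs summed (0.127), and leaving out 1 library gave 0.0988 to 0.15. The members above the median mRNA were accordingly 0 under those settings, 0 to 1 with 1 library left out, and 2 with at least 1 summed count, which adds TIA1. The median of the 7 members was -1.14 with at least 1 summed count. CPM without length, which drops the length correction by construction, gave 0.165 for ZFP36L2, -2.64 for ZFP36, -0.831 for ELAVL1 and for the median, 1.53 for KHSRP, -0.786 for TIAL1 and -1.66 for PUM2. It gave 2.58 for the difference of ZFP36 from ZFP36L1, the reverse of the value with length, and -5.4 for ZFP36L1 from ZFP36L2. A pseudocount of 1 TPM gave 8.43 for TIA1 from TIAL1. The related lists had 12, 23, 13 and 12 TUs past the thresholds. Of these, 23 were above and 35 below in the main test (40.0% and 50.4% of all TUs). Against a 2-fold difference 10 were above and 22 below (21.3% and 29.8% of all TUs). With at least 1 summed count, 28 TUs of the lists were above and 28 below, where 6579 and 8008 of 21100 TUs were called.

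Replicate numbers are shared by both assays but mark no known pairing: the deviations of replicate 1 from 2 correlated at -0.0526 over 8726 mRNAs. Apart from KHSRP, the replicate block changed no call on a member. Depth limits ZFP36 and ZFP36L1 most, with 53 and 27 RNA-seq counts in all, and TIA1 with 4 in PRO-seq.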
